A study of Mus musculus with 6 samples.

Results

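The genes described are the splicing factor genes of the mouse cerebellum whose symbols begin with Hnrnp or with Srsf and a digit. The 6 deposited tables of expression held 31 such genes, 20 Hnrnp and 11 Srsf, among 24497 genes with a number in every library. RNA sequencing of total RNA from the cerebellum was carried out in 2 groups of 3 libraries, all from male mice aged 6 weeks. The wild-type libraries were labelled with the strain C57BL/6. The other group was heterozygous for a null allele of Reln, the gene of the secreted glycoprotein reelin, and carried the strain label Orl/BalbC. Genotype and strain therefore cannot be told apart in any difference between the groups. The labels number the libraries of each group from 1 to 3 and do not say whether each came from a separate animal. The p-values therefore concern libraries, which may not stand for separate animals. The labels name no treatment.

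The hnRNP proteins coat nascent transcripts in the nucleus and take part in splice site choice, RNA export, transport and stability. The SR proteins carry an RNA recognition motif and a domain rich in arginine and serine, bind exonic enhancers and help to recruit the spliceosome. Phosphorylation by the SRPK and CLK kinases moves SR proteins between nuclear speckles and sites of transcription. Malat1, a long noncoding RNA retained in those speckles, binds several SR proteins. Its level stood in here for the share of nuclear RNA in a library, an assumption that was not tested. Many SR and hnRNP genes limit their own protein level by splicing their transcripts into forms that are held in the nucleus or degraded by nonsense-mediated decay.

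The annotation of these genes bears on how a single gene-level value should be read. In GENCODE M21, 19 of the 31 genes (61.3%) had at least 1 transcript annotated as a target of nonsense-mediated decay, against 27.1% of the 6083 protein-coding genes tested. The share was 81.8% among Srsf genes (9 of 11) and 50.0% among Hnrnp genes (10 of 20). A retained-intron transcript was annotated for 22 of the 31 genes (71.0%), against 59.4% of the protein-coding genes tested. The median number of annotated transcripts was 7 for the 31 genes and 5 for the protein-coding genes tested, a difference for which these shares are not adjusted. Hnrnpk had the most annotated transcripts, 34, and Hnrnpa0 had 1. The deposited values are per gene, so productive and unproductive transcripts of one gene were not separated.

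Promoter windows are shown for the Srsf genes with the most positive slopes on Malat1, Srsf1 and Srsf5, and for Hnrnpa0 and Hnrnpc, which were among the genes with the most negative. The slopes served only to choose the windows, and none of them passed an adjusted p of 0.05 in limma over the 6 libraries. Each window is the 250 bases before the gene's start in RefSeq (GRCm38.p6, the build also called mm10), written 5′ to 3′ on the gene's strand, with capitals marking the motifs found on either strand. The windows lie at chr11:88047123-88047372 (plus strand), chr12:80945249-80945498 (plus), chr13:58128557-58128806 (minus) and chr14:52104022-52104271 (minus).
Srsf1: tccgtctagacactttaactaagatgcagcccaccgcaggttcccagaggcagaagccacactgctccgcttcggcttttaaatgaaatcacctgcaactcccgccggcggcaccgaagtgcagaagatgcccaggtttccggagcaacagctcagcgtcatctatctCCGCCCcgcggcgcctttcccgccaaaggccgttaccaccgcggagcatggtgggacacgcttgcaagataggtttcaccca
Srsf5: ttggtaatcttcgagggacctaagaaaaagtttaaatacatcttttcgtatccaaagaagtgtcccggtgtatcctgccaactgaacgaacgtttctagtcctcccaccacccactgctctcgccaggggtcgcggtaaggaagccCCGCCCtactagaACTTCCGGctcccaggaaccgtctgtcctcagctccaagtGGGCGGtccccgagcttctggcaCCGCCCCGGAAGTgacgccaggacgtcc
Hnrnpa0: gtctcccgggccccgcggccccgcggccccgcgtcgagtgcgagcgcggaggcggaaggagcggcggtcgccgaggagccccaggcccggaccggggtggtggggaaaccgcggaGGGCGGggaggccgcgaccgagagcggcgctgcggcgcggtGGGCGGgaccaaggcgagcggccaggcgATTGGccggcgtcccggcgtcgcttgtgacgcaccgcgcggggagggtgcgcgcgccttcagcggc
Hnrnpc: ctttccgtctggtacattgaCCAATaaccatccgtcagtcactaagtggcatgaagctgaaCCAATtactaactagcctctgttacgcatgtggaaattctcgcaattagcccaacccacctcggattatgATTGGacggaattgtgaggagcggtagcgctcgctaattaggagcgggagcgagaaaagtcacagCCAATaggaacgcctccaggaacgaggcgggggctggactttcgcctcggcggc

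In these windows the capitals are the GC box GGGCGG, the CCAAT box CCAAT and the ETS element CCGGAAGT, or their reverse complements. Of the 31 genes, 29 had an entry in the RefSeq promoter table, with 41 windows in all. The GC box stood in 80.5% of the 41 windows against 32.7% of all 32851 windows in the table, and the CCAAT box in 48.8% against 33.8%. The ETS element stood in 14.6% of the genes' windows against 2.88%, the element GCATGCGC in 7.32% against 2.26%, the element CTCGCGAG in 4.88% (2 windows, both of Srsf4) against 0.761% and the element AAGATGGC in 2.44% against 1.56%. The TATA box TATAAA was in 7.32% against 12.4%, and its 3 genes were Hnrnpm, Srsf2 and Srsf3. The element TGACGTCA was in none of the genes' windows, against 1.55% of all windows, and ACTACAAT in none, against 0.667%. The Hnrnpc window held the CCAAT box 4 times and no GC box, and the Srsf1 window held the GC box and no CCAAT box. A match describes letters and is not a bound site.

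Values are FPKM, counts of sequenced fragments corrected for exon length and library size. Levels of different genes can be compared on this scale, and comparisons between libraries are given both as deposited and after a further scaling. The steps of the low values corresponded to roughly 22800000 to 28600000 reads per library. A level of 10 FPKM then rested on enough reads that counting error alone was 5.91 to 6.62% per kilobase of exon, and one of 1 FPKM on 18.7 to 20.9%. Small RNA genes took 7.36 to 21.7% of the summed FPKM of a library. Wild type 2 and heterozygous 2 were the opposite extremes of the first principal component over the tested genes, which held 63.9% of the variance. Reln was 0.834, 0.771 and 0.940 FPKM in wild type and 0.531, 0.509 and 0.580 FPKM in heterozygous libraries. The Reln groups did not overlap, with p = 0.1 in a two-sided exact permutation test, the smallest that 3 against 3 allows. The cerebellar markers Gabra6 of granule cells (53.7 to 68.3 FPKM) and Pcp2 of Purkinje cells (122 to 175 FPKM) were present in every library.

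The Srsf genes spanned a wide range of levels. Srsf1, a founding SR protein that binds purine-rich exonic enhancers, was the most abundant of the 31 genes. Its level was 31.8, 28.8 and 29.6 FPKM in wild type 1, 2 and 3, and 31.5, 31.4 and 24.2 FPKM in heterozygous 1, 2 and 3. Heterozygous 3 was the low library and the other 5 lay within 3 FPKM of each other. Srsf5, an SR protein with paired RNA recognition motifs, was 23.4, 29.85 and 24.8 FPKM in wild type and 32.1, 29.2 and 23.5 FPKM in heterozygous libraries. Its high libraries came from both groups, so the groups overlapped over nearly their whole range. Srsf2, the speckle protein also called SC35, was 20.9, 18.9 and 19.8 FPKM in wild type and 20.25, 19.5 and 16.7 FPKM in heterozygous libraries. As for Srsf1, heterozygous 3 was the lowest.

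Srsf3 and Srsf7, SR proteins that also act as adaptors for mRNA export, stood lower. Srsf3 was 11.9, 9.92 and 10.8 FPKM in wild type and 12.3, 14.5 and 10.6 FPKM in heterozygous libraries. Srsf7 was 9.09, 8.11 and 9.10 FPKM in wild type and 8.90, 9.93 and 8.34 FPKM in heterozygous libraries. Both were highest in heterozygous 2 and lowest in wild type 2, with overlapping groups. Srsf6 lay between 7.61 and 9.87 FPKM. Srsf10, which acts as a splicing repressor when dephosphorylated, lay between 3.96 and 5.84 FPKM, Srsf9 between 2.09 and 2.78 FPKM and Srsf11 between 1.94 and 2.44 FPKM. Srsf4 (0.632 to 0.934 FPKM) and Srsf12 (0.387 to 0.483 FPKM) had means below 1 FPKM and were not tested. The tested set is therefore 20 Hnrnp and 9 Srsf genes.

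Among Hnrnp genes the most abundant were Hnrnpk and Hnrnpu. Hnrnpk, a KH-domain protein that binds cytosine-rich RNA, was 29.8, 20.9 and 25.45 FPKM in wild type and 26.95, 31.6 and 25.9 FPKM in heterozygous libraries. Hnrnpu, which binds RNA attached to chromatin, was 25.95, 22.1 and 26.7 FPKM in wild type and 22.5, 26.5 and 23.4 FPKM in heterozygous libraries. Srsf1, Srsf5, Hnrnpk and Hnrnpu had the highest means, in that order. Neighbours in the order changed places between libraries, while Srsf1 was above Hnrnpu in all 6. Hnrnph2 and Hnrnph1 are close paralogs that bind runs of G. Hnrnph2 was 22.6, 15.9 and 21.4 FPKM in wild type and 18.15, 21.6 and 20.9 FPKM in heterozygous libraries. Hnrnph1 was 18.5, 15.7 and 17.5 FPKM in wild type and 16.8, 20.8 and 15.1 FPKM in heterozygous libraries. Wild type 2 was the lowest library for Hnrnpk, Hnrnpu and Hnrnph2, and heterozygous 3 for Hnrnph1.

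Hnrnpdl, a relative of the AU-rich element binding protein of Hnrnpd, varied least of the tested genes before scaling. It was 18.5, 19.3 and 17.9 FPKM in wild type and 20.6, 19.8 and 17.8 FPKM in heterozygous libraries, a ratio of highest to lowest of 1.16. Hnrnpa0, a member of the A/B group of hnRNP proteins, had the widest ratio, 1.71. Its level was 16.5, 11.5 and 14.7 FPKM in wild type and 14.65, 19.6 and 16.5 FPKM in heterozygous libraries. The other A/B genes lay between 9.35 and 12.5 FPKM for Hnrnpa2b1, 11.3 and 15.2 FPKM for Hnrnpa3, 8.65 and 12.9 FPKM for Hnrnpab and 4.97 and 6.58 FPKM for Hnrnpa1. Hnrnpl, which binds CA repeats, was 9.16, 7.24 and 8.82 FPKM in wild type and 8.97, 10.95 and 9.08 FPKM in heterozygous libraries. Hnrnpc, which binds tracts of U and forms part of the core particle on nascent RNA, was 6.115, 4.70 and 5.19 FPKM in wild type and 6.69, 7.505 and 5.43 FPKM in heterozygous libraries. For both genes wild type 2 was lowest and heterozygous 2 highest, as the plot of all 31 genes shows.

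**Figure D1:**
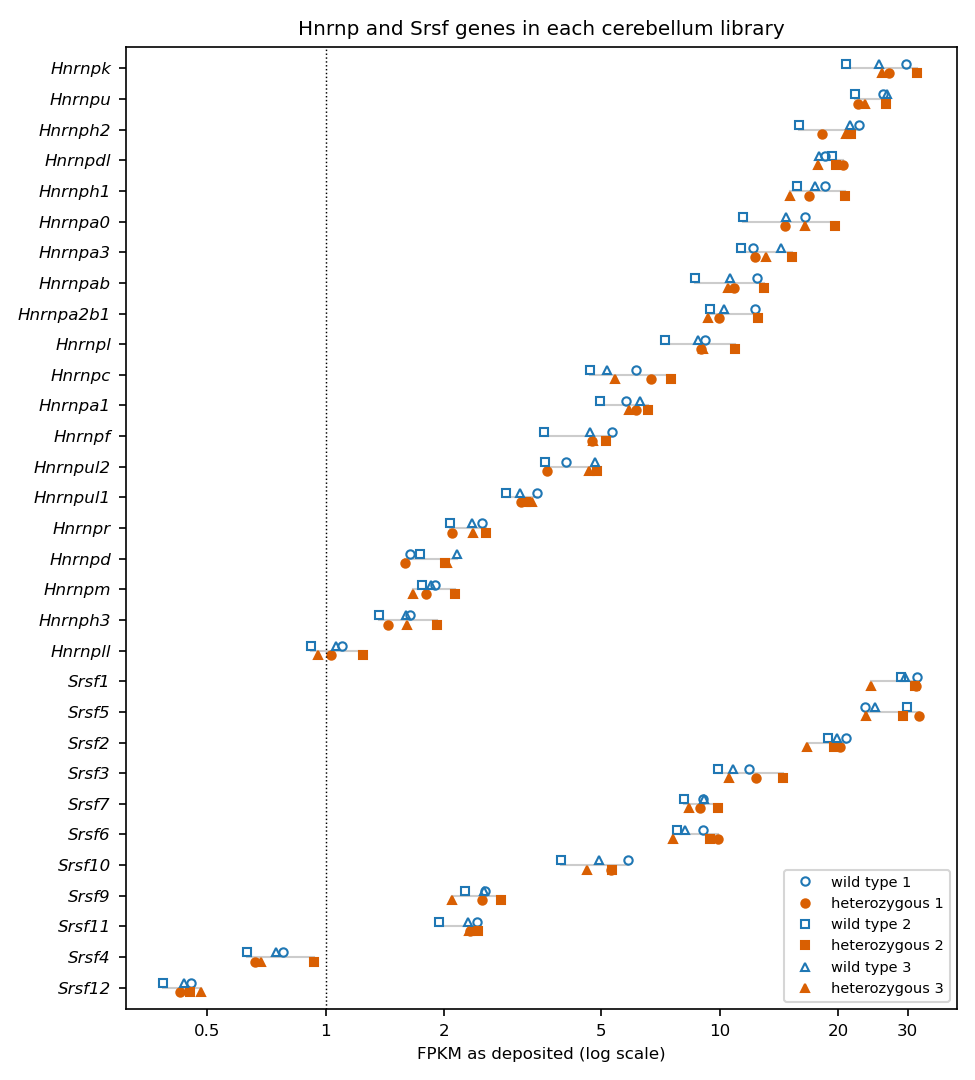
FPKM as deposited on a log axis for the 31 genes, with open blue symbols for the 3 wild-type libraries and filled orange symbols for the 3 heterozygous libraries, replicates told apart by shape; the grey line spans the lowest to the highest library and the dotted line marks 1 FPKM. Srsf4 and Srsf12 lie below that line, and no gene has groups that do not overlap.

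The remaining Hnrnp genes were below 6 FPKM. Hnrnpf, another protein of the G-run binding group, lay between 3.58 and 5.32 FPKM. The scaffold-attachment relatives of Hnrnpu, Hnrnpul2 and Hnrnpul1, lay between 3.60 and 4.87 FPKM and between 2.87 and 3.44 FPKM. Hnrnpr lay between 2.07 and 2.55 FPKM, Hnrnpd between 1.59 and 2.15 FPKM and Hnrnpm between 1.66 and 2.12 FPKM. Hnrnph3 lay between 1.36 and 1.91 FPKM, and Hnrnpll, the relative of Hnrnpl known for its part in the splicing of Ptprc in lymphocytes, between 0.916 and 1.24 FPKM. Of the 31 genes, 16 overlap another annotated gene, 7 of them a protein-coding one, and the labels do not say whether counting used the strand of the stranded kit. Hnrnpk overlaps Rmi1, Hnrnpu overlaps Cox20 and Srsf2 overlaps Mettl23 and Mfsd11, each on the opposite strand, so reads of these pairs may not have been told apart. Hnrnpa1 and other Hnrnp genes also have processed pseudogenes, and the handling of reads that match both is not given in the sources used here.

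Heterozygous and wild-type libraries were compared for each gene with limma on log2(FPKM + 1) over the 6358 genes whose mean reached 1 FPKM. None of the 29 tested Hnrnp and Srsf genes passed an adjusted p of 0.05, where 5 of 6358 genes (0.0786%) did. The smallest adjusted p among the 29 genes was 0.899 in limma, and none had an unadjusted p under 0.05, against 3.33% of all genes. The difference, heterozygous minus wild type, was above 0 for 25 of the 29 genes, with a median of 0.06 (log2). Over all genes tested it was above 0 for 83.1%, with a median of 0.08, so the positive side was shared with the whole transcriptome. Without wild type 2 the genes' median was -0.01 and that of all genes 0.01, and without heterozygous 2 they were 0.02 and 0.04. In bulk tissue, fewer cells of a type and less RNA per cell cannot be told apart.

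Each difference is given with its 95% interval from limma. The variance behind the interval came mostly from other genes of similar level, with 54.4 prior against 4 residual degrees of freedom. Hnrnpc had the highest difference, 0.25 ± 0.14 (SE, n = 3 and 3), with a 95% interval of -0.03 to 0.53. Hnrnpa0 followed at 0.24 with an interval of -0.08 to 0.56, Hnrnpl at 0.18 with -0.11 to 0.48 and Srsf3 at 0.18 with -0.13 to 0.48. At the other end Srsf2 had a difference of -0.08 with an interval of -0.40 to 0.24. Srsf1 stood at -0.06 with an interval of -0.39 to 0.28, Hnrnpu at -0.04 with -0.37 to 0.29 and Hnrnpa2b1 at -0.01 with -0.31 to 0.30. Hnrnpk, the most abundant Hnrnp gene, had a difference of 0.15 with an interval of -0.19 to 0.49. For each of these 9 genes the interval held 0. No interval of the 29 genes reached below -0.40 or above 0.56.

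**Figure D2:**
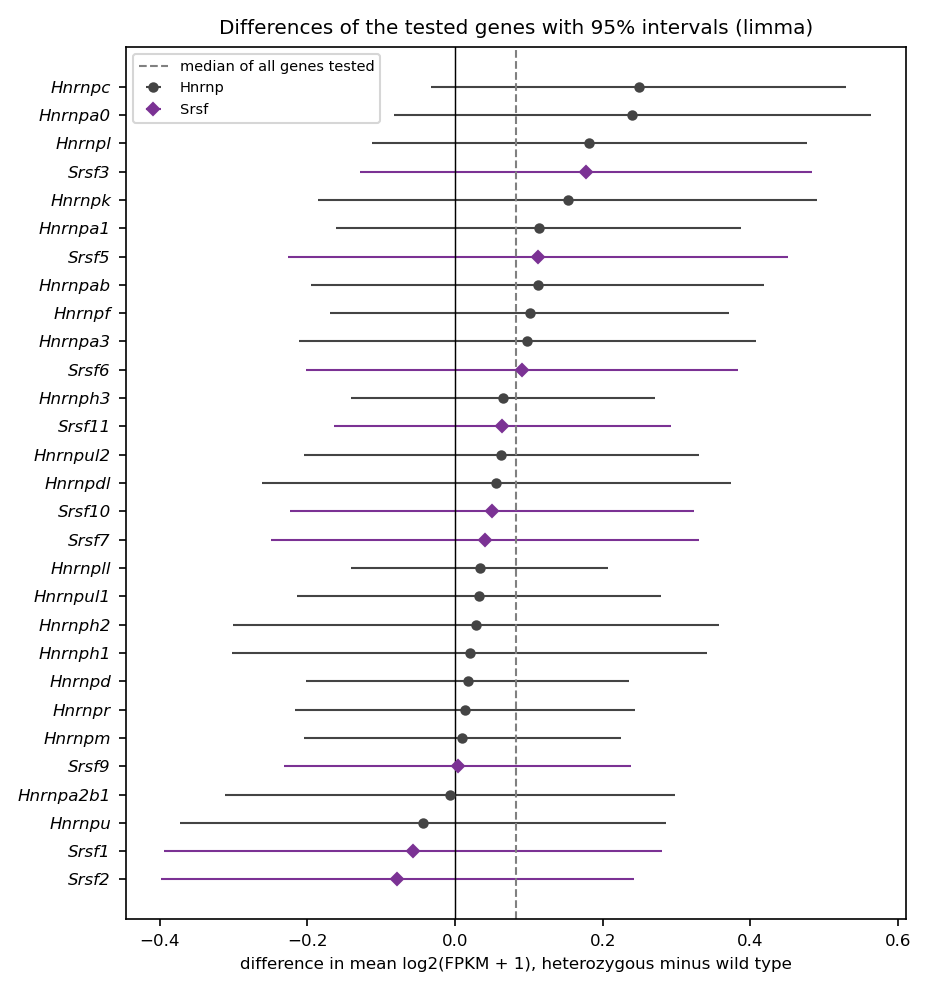
Heterozygous minus wild-type difference of the mean log2(FPKM + 1) for the 29 tested genes with 95% intervals from limma, circles for Hnrnp and diamonds for Srsf, with a solid line at 0 and a dashed line at the median of all genes tested (0.08). Every interval crosses 0, from Srsf2 at -0.08 to Hnrnpc at 0.25.

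None of the 29 genes had groups that did not overlap. Over all genes tested, 4.81% had every heterozygous library above every wild-type library and 0.739% the reverse. The libraries were also brought to a common median by median-of-ratios scaling, with size factors from 0.840 in wild type 2 to 1.14 in heterozygous 2. This moved the median difference of all genes to 0.00, and that of the 29 genes to -0.03 with 8 above 0 and 21 below. Again none of the 29 genes passed the limma test, and none of all genes did, while 5.11% of all genes and none of the 29 had an unadjusted p under 0.05. After scaling 1 of the 29 genes, Hnrnpu, had heterozygous libraries that all lay below the wild-type libraries, and none the reverse, against 5.14% and 5.74% of all genes. Scaled Hnrnpu was 24.0, 26.3 and 27.4 in wild type and 22.3, 23.3 and 23.7 in heterozygous libraries, a difference of -0.16 (log2) with an adjusted p of 0.780 in limma.

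These genes also differed between libraries of the same group. Heterozygous 2 was the highest library for 18 of the 29 genes (62.1%, against 56.3% of all genes tested), and wild type 2 the lowest for 19 (65.5%, against 78.4%). Heterozygous 3 was the lowest for 8 (27.6%), against 7.53% of all genes. Those 8 included Srsf1, Srsf2, Hnrnph1 and Hnrnpa2b1. The median coefficient of variation over the 6 libraries was 11.8% for the 29 genes and 12.7% for all genes tested. Scaling brought these to 7.26% and 7.55%. Scaling did not lower the variation of every gene. That of Hnrnpk went from 13.9 to 4.02%, while that of Srsf5 went from 13.7 to 19.2% and that of Hnrnpdl from 5.80 to 11.7%.

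The Srsf and Hnrnp families were displaced differently in single libraries. The summed level of the 31 genes was 330, 282 and 314 FPKM in wild type and 320, 355 and 295 FPKM in heterozygous libraries. Srsf genes made up 35.9, 39.9 and 36.1% of that sum in wild type and 39.4, 35.5 and 34.2% in heterozygous libraries. Wild type 2 and heterozygous 1 thus had the highest Srsf share, 1 in each group. After scaling, the median displacement of the 9 Srsf genes from their own means was 0.10 (log2) in wild type 2 and 0.07 in heterozygous 1, and -0.14 in heterozygous 3. The Hnrnp median stayed between -0.04 and 0.03 in all 6 libraries. Small RNA genes took 21.6% of the summed FPKM in wild type 2, 21.7% in heterozygous 3 and 14.6% in heterozygous 1, against 7.36 to 10.6% in the other 3; their part in these displacements was not tested.

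Malat1 was then set against the levels of these genes, library by library. Malat1 was 426, 677 and 646 FPKM in wild type and 428, 372 and 304 FPKM in heterozygous libraries, which is 0.469 to 1.23% of the summed FPKM. The groups overlapped, and the mean of 583 ± 137 FPKM in wild type against 368 ± 62.0 FPKM in heterozygous libraries (SD, n = 3 each) gave p = 0.2 in a two-sided exact permutation test, where the smallest possible was 0.1. On the log2 scale, wild type 2 and 3 stood 0.59 above the next library, while the other 4 spanned 0.49. Because the libraries fell into these separate clusters, no correlation across the 6 is given, and the slope of each gene on log2(Malat1 + 1) is given with and without the 2 high libraries. Both high libraries are wild type, so Malat1 and genotype were partly confounded.

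None of the 29 genes passed an adjusted p of 0.05 for a slope on Malat1 in limma, where 22 of 6357 genes (0.346%) did. The slopes were negative for 24 of the 29 genes, with a median of -0.09 log2 units per log2 unit of Malat1. Over all genes tested only 8.51% had a positive slope and the median was -0.16, so the negative side was again shared with the whole transcriptome. Hnrnp genes had a median slope of -0.12, with 1 of 20 positive, and Srsf genes one of -0.05, with 4 of 9 positive. The steepest negative slope was that of Hnrnpa0, -0.40 ± 0.17 (SE), with an unadjusted p of 0.026 and an adjusted p of 0.451 in limma. Hnrnpc had a slope of -0.28 ± 0.16 and Hnrnpk one of -0.28 ± 0.18, both with an adjusted p of 0.451 in limma. The most positive slopes were those of Srsf1, 0.10 ± 0.18, Srsf5, 0.09 ± 0.18, and Srsf2, 0.09 ± 0.17, with adjusted p-values of 0.702, 0.719 and 0.697 in limma.

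**Figure D3:**
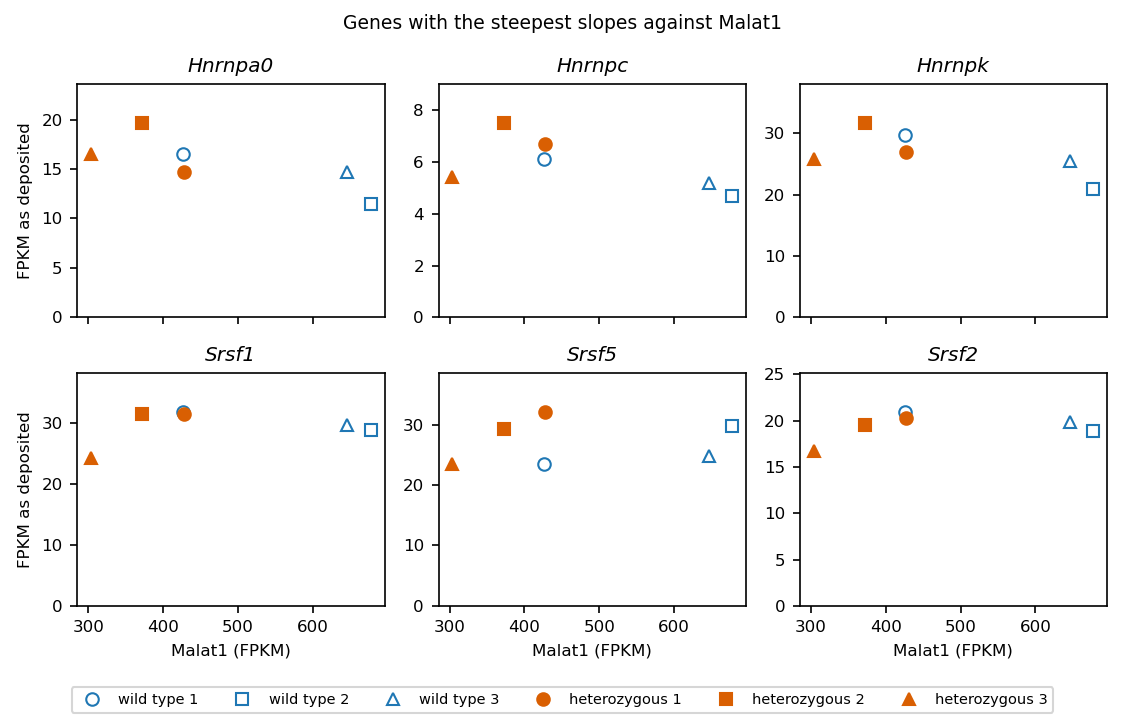
FPKM of the genes with the 3 most negative (top) and 3 most positive (bottom) slopes against Malat1 FPKM in the 6 libraries, with open blue symbols for wild type and filled orange symbols for heterozygous libraries. Wild type 2 and 3 stand alone at 677 and 646 FPKM of Malat1, and Srsf1 and Srsf2 are lowest in heterozygous 3, the library with the least Malat1.

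The sign of the slopes depended on scaling and on single libraries. After median-of-ratios scaling, 21 of the 29 slopes were positive, with a median of 0.05 against -0.01 for all genes, and 8 of 9 Srsf slopes were positive with a median of 0.12. None of the 29 passed the limma test. Under scaling 7 of them (24.1%) had an unadjusted p under 0.05, against 8.49% of all genes. Srsf2 then had the smallest adjusted p, 0.262 in limma, with a slope of 0.24 ± 0.06, and the slope of Srsf1 was 0.24 ± 0.08. Without wild type 2 and 3, the 2 libraries farthest from the median of Malat1, the median slope of the 29 genes was 0.17, against 0.10 for all genes, with 20 of 29 positive (69.0%, against 71.1% of all genes). All 9 Srsf slopes were positive there, with a median of 0.42, while the Hnrnp median was 0.03 with 11 of 20 positive. None of these slopes had an unadjusted p under 0.05, and the range of Malat1 left was small. Without wild type 2 alone the median slope was 0.01, against -0.05 for all genes.

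Leaving out heterozygous 3, the library with the least Malat1, changed the number of calls most among the 6 libraries left out in turn. In its absence 905 genes passed the limma test, 875 of them (13.8% of all tested) with a negative slope, and the median of all genes was -0.28. Of the 29 genes, 1 passed, Hnrnpc, with a slope of -0.58 ± 0.13 and an adjusted p of 0.046 in limma. Slopes of 28 of the 29 genes were then negative, with a median of -0.19, and those of Srsf1, Srsf2 and Srsf5 were -0.15, -0.07 and -0.06. Hnrnpk, Srsf3 and Hnrnpa0 lay just over the threshold, with adjusted p-values of 0.0504, 0.0504 and 0.0514 in limma. The count of 1 of 29, against 13.8% of all genes, therefore rests on where the threshold falls. An unadjusted p under 0.05 in limma was found for 31.0% of the 29 genes and 48.2% of all genes. With the other listed nuclear RNAs as the measure in place of Malat1, the median slope was 0.38 and 27 of 29 slopes were positive, with none past the test, against a median of 0.40 and 85.7% positive for all genes. Their summed level, 78.9 to 95.3 FPKM, was highest in wild type 1 and did not follow the order of Malat1. Most of that sum was Peg13, 70.4 FPKM in wild type 1 and 48.7 FPKM in wild type 2. Of the 5 of these RNAs that were tested, 4 had positive slopes on Malat1 and Peg13 a negative one, -0.20. The slopes on the sum therefore reflect mainly the level of Peg13.

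A within-library ratio needs no scaling between libraries. The ratio of Hnrnpk to Hnrnpu, a pair named for their level and set against each other after their values were seen, was 1.15, 0.947 and 0.954 in wild type and 1.2, 1.19 and 1.10 in heterozygous libraries. The 2 libraries with the most Malat1 had the 2 lowest ratios. The ratio describes unequal levels of the pair and does not say which of them differed.

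Further genes were taken from 5 lists, of splicing proteins, nuclear long noncoding RNAs and genes induced by cold or neuronal activity. No gene of any list passed the limma test between the groups. Of 21 tested SR-related proteins and SR protein kinases, 6 were above 0 and 15 below, with a median difference of -0.07, against the 83.1% above 0 and 0.08 of all genes. After scaling, 20 of the 21 were below 0, with a median of -0.14. Their median slope on Malat1 was 0.02 as deposited and 0.13 after scaling. Clk1, a kinase that releases SR proteins from speckles, was 8.32, 6.19 and 7.72 FPKM in wild type and 5.75, 5.45 and 5.67 FPKM in heterozygous libraries. Its heterozygous libraries all lay below the wild-type libraries, with a difference of -0.34 ± 0.14 (SE) and an adjusted p of 0.899 in limma. The other genes of the list with this order, named because of it, were Clk4 (-0.08) and Luc7l3 (-0.15), so 3 of the 21 had it against 0.739% of all genes. After scaling the same 3 genes had it, against 5.14% of all genes. Srpk2, a cytoplasmic SR protein kinase, had the highest difference of the list, 0.08.

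The core spliceosome list followed the whole transcriptome, with 34 of 39 genes above 0 and a median of 0.08. Snrpb, a Sm protein gene, was 5.88, 5.07 and 5.21 FPKM in wild type and 6.71, 9.004 and 6.57 FPKM in heterozygous libraries. Its heterozygous libraries all lay above the wild-type libraries, with a difference of 0.39 ± 0.14 (SE) and an adjusted p of 0.899 in limma. Prpf31, named for the same order, had a difference of 0.11, so 2 of the 39 had it, near the 4.81% of all genes. Snrnp70, whose protein belongs to the particle that recognises the donor splice site, had the lowest difference, -0.34. Among 22 other hnRNP-type and neuronal splicing regulators, 16 were above 0 with a median of 0.02, from Sfpq at -0.27 to Matr3 at 0.16. Raly, a relative of Hnrnpc, was the gene of that list whose heterozygous libraries all lay above the wild type, at 0.14. That is 1 of 22, again near the share of all genes.

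Among 6 tested nuclear long noncoding RNAs, 1 was above 0 and 5 below, with a median of -0.41, from Malat1 at -0.65 to Peg13 at 0.03. On Malat1 3 of the other 5 had slopes past the limma test: Meg3 with 0.99 (adjusted p 0.00041), Snhg11, whose heterozygous libraries all lay below the wild type, with 0.71 (adjusted p 0.015) and Kcnq1ot1 with 0.60 (adjusted p 0.0061). No Hnrnp or Srsf gene had a slope of this size in the same fit. The order of Snhg11 between the groups was that of 1 of the 6 RNAs, against 0.739% of all genes as deposited and 5.14% after scaling. Of 12 genes induced by cold or neuronal activity, 7 were above 0 with a median of 0.04. Cirbp, a cold-inducible RNA-binding protein, was 8.44, 9.47 and 9.93 FPKM in wild type and 10.8, 12.4 and 13.0 FPKM in heterozygous libraries, a difference of 0.35 ± 0.15 (SE) with an adjusted p of 0.899 in limma. Fos, an activity-induced transcription factor, had the lowest difference of the list, -0.62.

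Markers of 10 cell types were summed in each library beside these results. Granule cell markers summed to 623 to 716 FPKM in wild type and 681 to 703 FPKM in heterozygous libraries, and Purkinje cell markers to 246 to 335 and 320 to 335 FPKM. Astrocyte and Bergmann glia markers summed to 381 to 554 and 503 to 567 FPKM, oligodendrocyte markers to 147 to 232 and 192 to 258 FPKM, and interneuron markers to 53.4 to 68.9 and 66.6 to 72.0 FPKM. Microglia markers summed to 8.98 to 15.8 and 12.5 to 21.9 FPKM, endothelial and pericyte markers to 27.7 to 50.7 and 37.9 to 48.2 FPKM, meningeal markers to 151 to 309 and 231 to 326 FPKM, and blood cell markers to 58.3 to 162 and 63.1 to 108 FPKM. Choroid plexus markers ran from 1.34 to 290 FPKM in wild type and from 4.49 to 165 FPKM in heterozygous libraries, and Folr1 was listed at 0 in wild type 2. These sums are of FPKM as deposited and were not scaled between libraries. As deposited, wild type 2 was the lowest library for most Hnrnp and Srsf genes and for 78.4% of all genes tested. All but the blood marker sums were lowest there too, so they do not show fewer cells of these types. The part of these cell types in the levels of the Hnrnp and Srsf genes was not tested.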

How the data were processed

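Expression was measured by stranded sequencing of total RNA in 6 cerebellum libraries, 3 per group. Per the labels' protocols, mitochondrial and ribosomal reads were removed, reads were aligned to mm10 with TopHat2 and Bowtie, and Cufflinks gave FPKM per gene, the unit of the deposited values. Cuffdiff 2.1.1 is named in the submitters' processing notes, and its output was not used here. The strand setting is not given in the sources used here. 40 genes were left out because 1 file held dates in place of values, none of them an Hnrnp or Srsf gene. Symbols were matched to GENCODE M21 (23789 of 24497 matched 1 position). Depth of wild type 1 was estimated from the FPKM and lengths of 4528 single-transcript genes. Depth of the other libraries came from the commonest ratio of their low values to those of wild type 1.

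Differences and slopes were fitted with limma 3.58.1 (R 4.3.3) on log2(FPKM + 1), so fold changes of low genes are understated, with an intensity trend, a minimum mean of 1 FPKM and Benjamini-Hochberg adjustment over all genes. limma moderates the variance of a gene toward that of genes of similar level. The prior degrees of freedom were 54.4 for differences and 29.2 for slopes, against 4 residual. Errors, intervals and p-values thus rest mostly on this shared variance. The fits were tested on simulated data with independent noise in each gene, which lack the variation that genes share between these libraries. Reln and Malat1 were tested by exact permutation. Tables and plots were made in Python 3.11.15 with pandas 2.3.3, numpy 2.4.6 and matplotlib 3.10.9.

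Genes were named by rule: the 6 Hnrnp and 5 Srsf genes highest in mean FPKM, the 4 highest and 4 lowest differences, the 3 steepest slopes in each direction, any gene past a test or with groups that did not overlap, and for each list its extremes and any gene past a test. Members, lists and rules were chosen with earlier results of these data known. Alternatives covered the pseudocount, the filter, scaling, covariates, the trend, a replicate block and leaving out libraries.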

Additional observations from a re-analysis of the deposited data

How the results depend on the processing

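With 3 libraries a group, the 95% intervals of the Hnrnp and Srsf genes in the main fit all held a difference of 0. Among the alternatives, an unadjusted p under 0.05 in limma was found for 2 of the 29 with small and nuclear RNAs left out. It was found for 2 without wild type 1 and 1 without heterozygous 3. The shares of all genes in these 3 fits were 5.03%, 14.7% and 5.77%. No Hnrnp or Srsf gene was called between the groups under any alternative run. The number of genes called between the groups, 5, was 1 with no filter, 0 under median-of-ratios scaling, 0 with small and nuclear RNAs left out and the rest rescaled, 0 with no intensity trend, 32 with Malat1 as a covariate, and 5 to 62 leaving out 1 library. Replicate numbers did not pair the libraries (correlations of same-numbered deviations -0.28, -0.52 and 0.14), and the fit with a replicate block called 13 genes. With wild type 2 and heterozygous 2 left out, an alternative chosen after seeing the data, 66 genes were called. The median difference was then -0.059 for the 29 genes and -0.034 for all genes. With small and nuclear RNAs left out these medians were -0.052 and -0.018. The number called for a slope on Malat1, 22, was 0 with no filter, 8 at a mean of 5 FPKM, 0 with small and nuclear RNAs left out, 55 with group as a covariate, 58 without the 2 libraries farthest in Malat1, 58 without wild type 2 and heterozygous 2, and 5 to 905 leaving out 1 library, with 0 to 1 of the 29 genes. The median slope was 0.38 on the other nuclear RNAs and 0.17 without the 2 farthest libraries. The cause of these shifts was not tested.

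Single genes, none of them past a test as reported, changed sign. Under median-of-ratios scaling the difference was -0.084 for Hnrnph2, -0.057 for Hnrnpdl, -0.093 for Hnrnph1, -0.0024 for Srsf5 and -0.066 for Srsf7. With small and nuclear RNAs left out it was -0.11, -0.079, -0.11, -0.025 and -0.087 for the same genes. With Malat1 as a covariate it was -0.073 for Hnrnpk, -0.26 for Hnrnph2, -0.015 for Hnrnph1, -0.052 for Hnrnpa0 and 0.016 for Srsf1. Without wild type 2 and heterozygous 2 it was -0.058 for Hnrnpk, -0.17 for Hnrnph2, -0.16 for Hnrnph1, -0.0033 for Hnrnpa0 and -0.070 for Srsf7. Leaving out 1 library, it ran from -0.12 to 0.092 for Hnrnpa2b1, -0.12 to 0.12 for Hnrnph2, -0.10 to 0.12 for Hnrnph1, -0.021 to 0.093 for Srsf7, -0.12 to 0.0060 for Hnrnpu, -0.12 to 0.064 for Srsf1 and -0.13 to 0.0022 for Srsf2. Slopes ran from -0.15 to 0.19 for Srsf1, -0.073 to 0.18 for Srsf2 and -0.060 to 0.23 for Srsf5. On the other nuclear RNAs the slope was 0.47 for Hnrnpa0, 0.17 for Hnrnpc, 0.76 for Hnrnpk and -0.80 for Srsf5. Without the 2 farthest libraries it was 0.37 for Hnrnpc and 0.22 for Hnrnpk.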

Other observations

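Srsf5 and Hnrnpdl split the 6 libraries as deposited in the same way, across the genotypes. This pattern was chosen after the values were seen and was not tested. Srsf5 stood at 29.2 to 32.1 FPKM in wild type 2, heterozygous 1 and heterozygous 2, and at 23.4 to 24.8 FPKM in the other 3 libraries. Hnrnpdl was 19.3, 20.6 and 19.8 FPKM in the first 3 and 18.5, 17.9 and 17.8 FPKM in the others. Fos, an immediate early gene of neuronal activity, was 4.89, 1.499 and 13.4 FPKM in the first 3 and 21.9, 24.1 and 25.1 FPKM in the others. The ratio of Srsf5 to Srsf7, which needs no scaling, was 3.68 in wild type 2 and 3.61 in heterozygous 1, the libraries with the least Fos, and 2.58 to 2.94 in the other 4. Scaling ended the split of 3 against 3, with heterozygous 2 moving among the low libraries. Scaled Srsf5 was 35.5 in wild type 2 and 31.9 in heterozygous 1, and 21.7 to 25.7 in the other 4. Scaled Hnrnpdl was 22.95 in wild type 2 and 20.4 in heterozygous 1, and 17.1 to 18.4 in the other 4, with heterozygous 2 at 17.4. The same 2 libraries had the most Rn45s, the ribosomal RNA precursor (85.3 and 75.2 FPKM, against 10.03 to 49.2 in the others). Ttr, a choroid plexus gene, was 0.566 and 3.15 FPKM in them, 6.43 FPKM in heterozygous 3, where Srsf5 was low, and 150 to 273 FPKM in the other 3.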
